A study of Homo sapiens with 36 samples.

Results

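The genes described here encode the DNA replication machinery, followed in 3 human breast cancer cell lines after loss of the phosphatase DUSP4 or inhibition of the kinase MEK. They were taken from a list of 48 genes by symbol. Of these, 47 had a probe that carries 1 gene symbol, out of 17958 genes measured this way. PCNA, the sliding clamp of the replicative polymerases, was not measured because its probe carries several symbols, and for CLSPN and UHRF1 the brighter of 2 probes was used. The mean signal of all 47 genes over the 36 arrays lay above the median probe level of 5.33 on the log2 scale.

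Each line, MDA231, SUM159PT and BT549, contributed 4 groups of 3 Affymetrix arrays. The siDUSP4 groups received 10 nM siRNA against DUSP4, which encodes a nuclear phosphatase of the MAP kinases ERK, p38 and JNK, together with the vehicle DMSO. The selumetinib 4 h and 24 h groups received 10 nM of a control siRNA pool and 1 uM selumetinib (AZD6244), an inhibitor of MEK1 and MEK2, for the last 4 h or 24 h of culture. The siCONTROL groups received the control siRNA and DMSO, and every group was harvested 96 h after transfection. The siDUSP4 groups therefore had 96 h with the siRNA whereas the drug groups had at most 24 h with the drug. For 24 arrays the title and the cell line field name one of SUM159PT and BT549 while the source name and description name the other; the titles were followed, and statements on these 2 lines rest on that choice. The labels do not say that the 3 arrays of a group came from separate cultures, so p-values measure the spread between these arrays, which may be technical.

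DNA replication is prepared in G1, when the origin recognition complex ORC, CDC6 and CDT1 load the MCM2 to MCM7 ring onto origins (licensing). In S phase the kinase CDC7 with DBF4, together with CDK activity, recruits CDC45 and the GINS complex to make the active helicase, and MCM10 helps to start unwinding. Polymerase alpha with primase, polymerases delta and epsilon, the clamp and its loaders, RPA and the nucleotide supply enzymes then copy the template, and many of these genes are transcribed by E2F factors, which the retinoblastoma protein RB1 restrains until cyclin-dependent kinases inactivate it. ERK signalling is known to induce D-type cyclins in G1.

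Promoter sequences of 41 of the 47 genes were in the RefSeq promoter table (GRCh38.p14, 250 bases before to 50 bases after the transcription start); DSCC1, GINS4, RPA3, MCM5, MCM4 and RPA2 had no entry. The promoters were searched on both strands for an E2F-type word, TTTNNCGC with C or G at each N, and for the CCAAT box. The E2F-type word occurred in 24 of 53 promoter entries of the genes (45.3%), against 3.31% of all 35116 promoters in the table. CCAAT occurred in 29 of the 53 entries (54.7%), against 34.6% of all promoters. By gene, 23 of 41 (56.1%) held the E2F-type word, among them 7 of 8 helicase genes, 4 of 6 polymerase and primase genes and 1 of 4 nucleotide supply genes. A match is a run of letters, not a site, and the absence of a match refers only to these letters in this window.

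The following 6 promoters belong to genes on which the results turn, 4 with the E2F-type word and 2 without it. Capitals mark the E2F-type word and the CCAAT box on either strand. CDC6 (chr17:40287629-40287928, plus strand) has 1 E2F-type word and 3 CCAAT boxes, CLSPN (chr1:35769929-35770228, minus strand) 1 and 3, and MCM6 (chr2:135876394-135876693, minus strand) 4 and 2, its words overlapping as opposite-strand pairs. TYMS (chr18:657403-657702, plus strand) has 1 word and no CCAAT box. MCM10 (chr10:13161308-13161607, plus strand) has no word and 2 boxes, and the RRM2 entry shown, 1 of 2 in the table (chr2:10122489-10122788, plus strand), no word and 3 boxes.
CDC6: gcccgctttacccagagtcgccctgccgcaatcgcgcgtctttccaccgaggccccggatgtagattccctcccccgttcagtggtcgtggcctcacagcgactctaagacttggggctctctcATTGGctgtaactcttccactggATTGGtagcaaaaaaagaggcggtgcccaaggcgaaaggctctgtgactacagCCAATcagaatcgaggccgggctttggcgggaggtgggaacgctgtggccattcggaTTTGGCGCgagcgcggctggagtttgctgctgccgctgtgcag
CLSPN: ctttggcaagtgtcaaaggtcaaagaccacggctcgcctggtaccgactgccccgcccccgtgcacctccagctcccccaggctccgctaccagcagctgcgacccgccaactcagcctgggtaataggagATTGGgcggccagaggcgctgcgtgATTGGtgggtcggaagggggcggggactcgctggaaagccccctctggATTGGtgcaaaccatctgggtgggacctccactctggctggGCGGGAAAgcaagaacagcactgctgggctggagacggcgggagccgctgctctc
MCM6: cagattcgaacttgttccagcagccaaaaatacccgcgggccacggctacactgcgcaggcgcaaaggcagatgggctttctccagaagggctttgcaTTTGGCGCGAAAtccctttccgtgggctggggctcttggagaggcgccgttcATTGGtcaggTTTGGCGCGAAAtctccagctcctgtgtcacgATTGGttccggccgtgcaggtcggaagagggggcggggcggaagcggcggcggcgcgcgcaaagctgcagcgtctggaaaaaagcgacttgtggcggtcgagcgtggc
TYMS: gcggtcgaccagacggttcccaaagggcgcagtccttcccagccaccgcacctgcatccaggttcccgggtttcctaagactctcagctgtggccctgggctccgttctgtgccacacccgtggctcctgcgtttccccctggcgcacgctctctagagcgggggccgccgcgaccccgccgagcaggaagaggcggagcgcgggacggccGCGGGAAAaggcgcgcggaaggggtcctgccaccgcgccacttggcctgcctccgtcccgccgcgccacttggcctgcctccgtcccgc
MCM10: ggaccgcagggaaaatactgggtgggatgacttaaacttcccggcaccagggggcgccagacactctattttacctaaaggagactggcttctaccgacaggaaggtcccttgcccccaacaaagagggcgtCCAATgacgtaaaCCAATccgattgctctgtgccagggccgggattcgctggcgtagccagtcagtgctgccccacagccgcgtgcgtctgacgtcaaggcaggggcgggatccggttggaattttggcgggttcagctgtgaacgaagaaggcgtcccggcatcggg
RRM2: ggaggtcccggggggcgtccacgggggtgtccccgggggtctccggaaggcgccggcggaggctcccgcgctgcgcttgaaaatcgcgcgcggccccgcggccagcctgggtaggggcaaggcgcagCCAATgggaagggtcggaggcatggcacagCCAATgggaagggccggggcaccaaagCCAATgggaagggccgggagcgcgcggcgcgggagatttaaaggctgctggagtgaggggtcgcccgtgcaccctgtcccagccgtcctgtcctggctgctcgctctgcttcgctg

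The labels were checked on the arrays. DUSP4 changed by -2.42, -1.84 and -2.24 (log2) after siDUSP4 in MDA231, SUM159PT and BT549. DUSP6, a direct transcriptional output of ERK, changed by -4.53, -2.91 and -1.60 after 4 h of selumetinib in the same order of lines, and by -3.16, -2.28 and -0.96 after 24 h. After siDUSP4 DUSP6 changed by -0.22, 0.04 and -0.06 and was not called in any line. SPRY4, another ERK output gene, changed by -0.78, 0.30 and 0.61 after siDUSP4, of which only the fall in MDA231 was called. Whether siDUSP4 changed ERK activity was not tested. The 7 epithelial and mesenchymal markers were mixed in siCONTROL arrays of MDA231, SUM159PT and BT549. The mesenchymal VIM was at 12.15, 11.99 and 11.89, ZEB1 at 10.02, 9.45 and 10.53 and CDH2 at 5.71, 10.66 and 8.84, while the epithelial CDH1 was at 4.30, 4.23 and 5.04, EPCAM at 8.39, 5.52 and 4.89, KRT8 at 10.98, 11.12 and 7.34 and KRT18 at 10.70, 11.10 and 9.66. Of 5 blood and endothelial genes, PECAM1 in MDA231 and SUM159PT and PTPRC in SUM159PT exceeded the median probe level (7.37, 7.11 and 5.75). Of the 36 arrays, 3 stood apart from their groups over all genes. The median difference of all genes from the siCONTROL mean of the line was -0.27 and -0.14 on the MDA231 4 h arrays B and C, against -0.01 on array A, and it was -0.30 on the BT549 24 h array A, against 0.01 on both arrays B and C. Results that rest on these arrays are given with and without them. No 2 arrays were identical, and the number of arrays limits the precision.

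In siCONTROL cells the replication genes differed between lines mainly in that SUM159PT had the lowest signals. Because probes differ in brightness, levels are compared here only between lines for the same gene. A gene was called at a Benjamini-Hochberg adjusted p under 0.05 in limma, over all 17958 genes. In MDA231 40 of the 47 genes were higher and 2, CDT1 and RPA3, lower than in SUM159PT, with a median difference of 0.92 (log2), where 23.1% and 21.7% of all genes were called higher and lower. In BT549 33 genes were higher and 3, ORC1, CDT1 and RRM1, lower than in SUM159PT (median 0.60; all genes 27.9% and 22.3%). BT549 against MDA231 showed 3 higher, MCM6, POLA2 and RPA2, and 19 lower (median -0.19; all genes 26.3% and 21.8%). These comparisons share arrays with each other and with the treatment comparisons.

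Single genes show that order and departures from it. CLSPN, which followed it, encodes the checkpoint and fork protein claspin and stood at 7.70 ± 0.13 in MDA231, 7.04 ± 0.17 in BT549 and 5.34 ± 0.15 in SUM159PT (log2 signal, SD, n = 3). POLE2, the second subunit of polymerase epsilon, was at 8.91 ± 0.03 in MDA231, 6.78 ± 0.27 in BT549 and 6.77 ± 0.03 in SUM159PT, and the last pair did not differ beyond their spread (difference 0.01, limma adjusted p = 0.97). RRM1, the large subunit of ribonucleotide reductase, was lowest in BT549 at 9.17 ± 0.29, against 10.95 ± 0.10 in MDA231 and 10.39 ± 0.02 in SUM159PT. CDT1, the licensing factor that works with CDC6, was at 7.01 ± 0.18 in BT549 and 7.29 ± 0.12 in MDA231, against 8.17 ± 0.04 in SUM159PT, where it was highest.

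After siDUSP4 the replication genes rose broadly in BT549, moved in both directions in MDA231 and passed the test nowhere in SUM159PT. In BT549 29 of 47 genes rose and none fell, with a median change of 0.49 (log2), where 4.97% of all 17958 genes rose and 9.22% fell with a median of 0.01. The siDUSP4 and siCONTROL arrays of BT549 did not overlap for 37 of the 47 genes, 36 higher and 1 lower after siDUSP4, against 18.8% and 19.9% of all genes. By the same measure SUM159PT had 3 higher and 17 lower (12.4% and 19.9% of all genes) and MDA231 17 higher and 13 lower (17.5% and 18.8%). In MDA231 12 genes rose and 6 fell (median 0.07), where 7.86% of all genes rose and 9.77% fell. Aligning the array medians gave 10 higher and 9 lower in MDA231, and the count of 18 called genes became 11 without siCONTROL array B, 9 without siCONTROL array C and 11 without siDUSP4 array A. In SUM159PT 0 genes were called by limma (median -0.08), 6 had an unadjusted p under 0.05, all lower, and 1.05% and 1.78% of all genes were called higher and lower. In whole-culture RNA a change in the share of cells in S phase and a change of transcript per cell cannot be told apart.

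**Figure D1:**
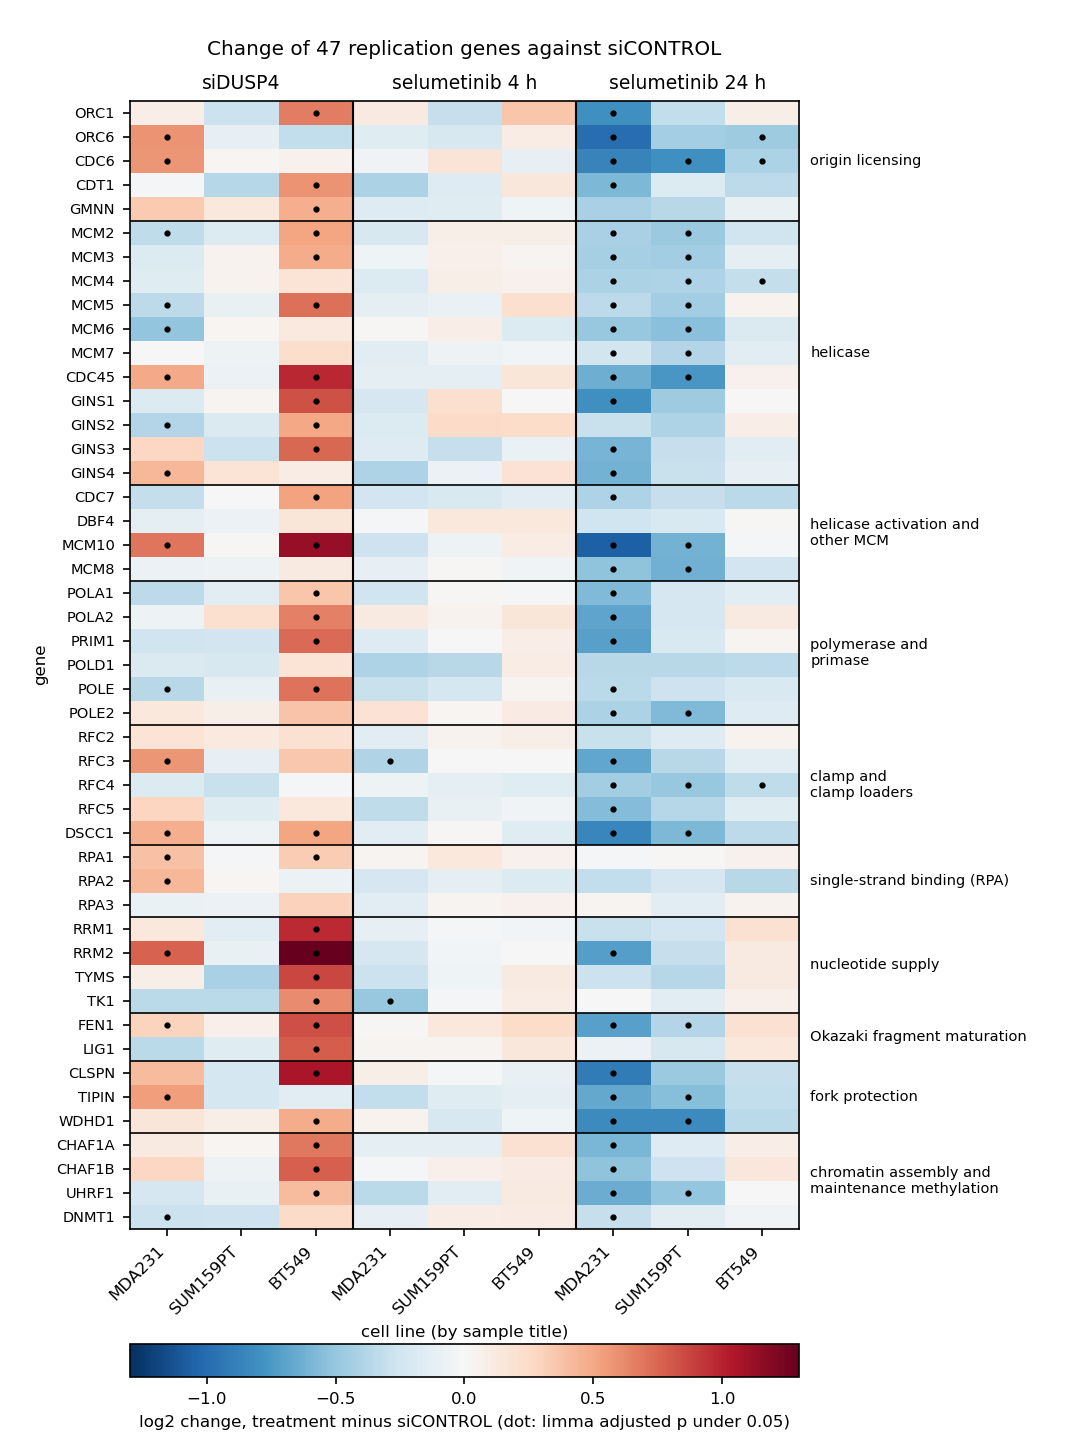
Log2 change of each of the 47 replication genes (rows, grouped by role) for siDUSP4, selumetinib 4 h and selumetinib 24 h minus siCONTROL in each line (columns), with a dot where limma's adjusted p was under 0.05. BT549 after siDUSP4 has 29 genes higher and none lower, and MDA231 after 24 h of selumetinib has 35 lower and none higher.

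The nucleotide supply genes gave the largest median in BT549. All 4 rose there, with a median of 0.92, against 7 of 11 helicase genes (median 0.51) and 4 of 6 polymerase and primase genes (median 0.51). The differences between these groups were not tested. The nucleotide supply genes also varied most between the BT549 siCONTROL arrays A, B and C. Their median difference from the siCONTROL mean was 0.29, -0.09 and -0.20 there, against 0.011, -0.029 and 0.0006 for the helicase genes. The size of their lead therefore depends on which control array is used. RRM2, the small subunit of ribonucleotide reductase, which limits deoxynucleotide production, had log2 signals of 9.82, 9.83 and 9.66 on the BT549 siDUSP4 arrays, against 8.78, 8.44 and 8.23 on the siCONTROL arrays. The groups did not overlap, and the change of 1.29 ± 0.16 (SE; limma adjusted p = 3e-07) amounted to 2.45-fold. In MDA231 RRM2 was at 9.90, 9.90 and 10.12 after siDUSP4, against 9.16, 9.24 and 9.20 in siCONTROL, a change of 0.77 ± 0.16 (limma adjusted p = 0.00044) with no overlap. In SUM159PT the values of 8.14, 7.93 and 8.10 after siDUSP4 overlapped those of 8.17, 8.16 and 8.13 in siCONTROL (change -0.10, 95% interval -0.42 to 0.22).

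TYMS, the thymidylate synthase gene, was among the 2 members with the smallest p for a difference between lines. Its BT549 signals were 10.26, 10.25 and 10.21 after siDUSP4, against 9.65, 9.24 and 9.21 in siCONTROL, a change of 0.87 ± 0.13 (limma adjusted p = 6.7e-06). The siDUSP4 arrays lay close together and above every siCONTROL array. In MDA231 the 2 groups overlapped at 10.27, 10.29 and 10.24 after siDUSP4, against 10.18, 10.25 and 10.14 in siCONTROL (change 0.07). In SUM159PT every siDUSP4 array, at 8.64, 8.44 and 8.51, was below every siCONTROL array, at 8.88, 9.02 and 8.97, with a change of -0.43 that missed the threshold (limma adjusted p = 0.06). The siDUSP4 effect on TYMS differed between lines (limma F test adjusted p = 1.2e-05), and was larger by 0.80 in BT549 than in MDA231 and by 1.30 than in SUM159PT. RRM1 rose by 0.97 ± 0.13 and TK1, the salvage enzyme thymidine kinase, by 0.62 ± 0.14 in BT549; in MDA231 their changes were 0.14 and -0.35 and passed no threshold.

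Among the helicase genes, CDC45 rose in both BT549 and MDA231, while MCM2, MCM5 and GINS2 rose in BT549 and fell in MDA231. CDC45, which turns the loaded MCM ring into a helicase, was at 9.81, 9.83 and 9.90 after siDUSP4, against 8.99, 8.73 and 8.86 in siCONTROL of BT549 (change 0.98 ± 0.11). In MDA231 it was at 9.33, 9.40 and 9.37 after siDUSP4, against 8.67, 8.93 and 9.02 in siCONTROL (change 0.49 ± 0.11). Neither pair of groups overlapped. MCM5, a ring subunit, had the smallest p of all members for a line difference of the siDUSP4 effect. In BT549 MCM5 was at 9.59, 9.58 and 9.63 after siDUSP4, against 8.90, 8.77 and 8.98 in siCONTROL, a change of 0.72 ± 0.10 (limma adjusted p = 4e-06). In MDA231 it was at 8.63, 8.86 and 8.76 after siDUSP4, against 8.85, 9.15 and 9.27 in siCONTROL, a change of -0.34 ± 0.10 (limma adjusted p = 0.014). The BT549 groups were apart, and the MDA231 groups overlapped at 1 array. The difference of the MCM5 effects, BT549 minus MDA231, was 1.06 ± 0.14 (limma adjusted p = 2.5e-06).

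MCM5, MCM2, GINS2 and POLE were called in opposite directions in the 2 lines. The share of all genes with opposite calls was not counted. Their MDA231 calls were not recomputed gene by gene, and the count of called genes in MDA231 dropped when some single arrays were left out. MCM2, another ring subunit, changed by 0.51 in BT549 and by -0.33 in MDA231, and GINS2, a subunit of the GINS complex, by 0.51 and -0.38. POLE, the catalytic subunit of the leading-strand polymerase epsilon, was at 8.58, 8.58 and 8.65 in BT549 siDUSP4 arrays, against 7.97, 7.81 and 7.92 in siCONTROL arrays (change 0.71 ± 0.12). In MDA231 POLE was at 7.62, 7.66 and 7.73 after siDUSP4, against 7.86, 8.13 and 8.11 in siCONTROL (change -0.36 ± 0.12). The groups did not overlap in either line. MCM6 fell by 0.52 ± 0.10 in MDA231 and was at 0.12 in BT549 without passing the test. In all, the helicase genes in MDA231 divided into 2 that rose (CDC45 and GINS4) and 4 that fell (MCM2, MCM5, MCM6 and GINS2). The median change of the 11 helicase genes in MDA231 was -0.17, that of the 6 polymerase and primase genes -0.22 and that of the 4 nucleotide supply genes 0.11. By array, the helicase median difference from the siCONTROL mean was -0.229, -0.127 and -0.135 after siDUSP4. It was -0.135, 0.062 and 0.035 in siCONTROL, so these groups overlapped. The polymerase medians were barely apart, with siCONTROL array A at -0.102 and siDUSP4 array B at -0.112.

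**Figure D2:**
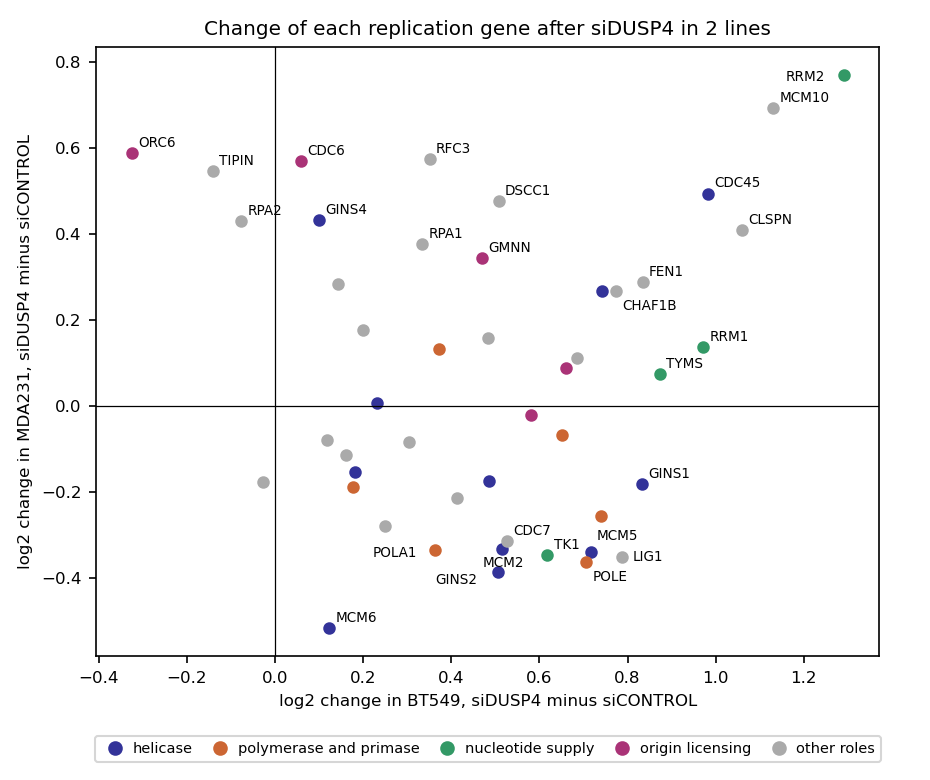
Log2 change after siDUSP4 in BT549 (horizontal) and MDA231 (vertical) for the 47 replication genes, coloured by role, siDUSP4 minus siCONTROL. RRM2, MCM10 and CDC45 lie high on both axes, while MCM5, POLE, MCM2 and GINS2 lie to the right and below 0 on the vertical axis.

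Across the 47 genes the siDUSP4 changes in MDA231 and BT549 had a Pearson's r of 0.05 and a Spearman's rho of -0.02; these 2 lines share no arrays, and genes are not independent. Genes that rose in both lines were RRM2, MCM10, CDC45, DSCC1, RPA1 and FEN1. The share of all genes that rose in both was not counted. MCM10, which acts at the start of unwinding, was at 9.98, 9.89 and 9.86 in BT549 siDUSP4 arrays, against 8.87, 8.57 and 8.89 in siCONTROL arrays, a change of 1.13 ± 0.13 (limma adjusted p = 9.3e-08). In MDA231 it was at 9.51, 9.61 and 9.49 after siDUSP4, against 8.70, 8.90 and 8.92 in siCONTROL, a change of 0.69 ± 0.13 (limma adjusted p = 0.00014). Both pairs of groups were fully apart, and in SUM159PT they overlapped (change 0.02, 95% interval -0.24 to 0.28). RPA1, the large subunit of the single-strand binding protein RPA, rose by 0.38 ± 0.08 in MDA231 and 0.33 ± 0.08 in BT549. FEN1, the flap endonuclease that trims Okazaki fragments, rose by 0.29 ± 0.10 and 0.83 ± 0.10 in these lines, and DSCC1, part of a cohesion-linked clamp loader, by 0.48 ± 0.14 and 0.51 ± 0.14.

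Other genes changed in 1 of the 2 lines. CLSPN was at 8.21, 8.10 and 7.99 after siDUSP4, against 7.23, 6.90 and 6.98 in siCONTROL of BT549 (change 1.06 ± 0.16, limma adjusted p = 1e-05). In MDA231 it was at 8.13, 8.13 and 8.08 after siDUSP4, against 7.56, 7.83 and 7.72 in siCONTROL. The MDA231 groups did not overlap, yet the change of 0.41 missed the threshold (limma adjusted p = 0.069). ORC6, the smallest ORC subunit, was at 7.43, 7.50 and 7.26 after siDUSP4, against 7.42, 7.91 and 7.83 in siCONTROL of BT549, overlapping, with a change of -0.32 that missed the threshold. In MDA231 ORC6 was at 8.31, 8.25 and 8.29 after siDUSP4, against 7.75, 7.70 and 7.63 in siCONTROL, a change of 0.59 ± 0.15 (limma adjusted p = 0.0041) with no overlap. The difference of the ORC6 effects, BT549 minus MDA231, was -0.91 ± 0.21 (limma adjusted p = 0.0026). CDC6, the ORC partner that loads the MCM ring, likewise rose by 0.57 ± 0.12 in MDA231 and was at 0.06 in BT549. In BT549 the ligase gene LIG1 rose by 0.79, the histone chaperone subunits CHAF1A and CHAF1B by 0.69 and 0.77, and UHRF1, the partner of the maintenance methyltransferase DNMT1, by 0.41. DNMT1 itself fell by 0.28 in MDA231.

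**Figure D3:**
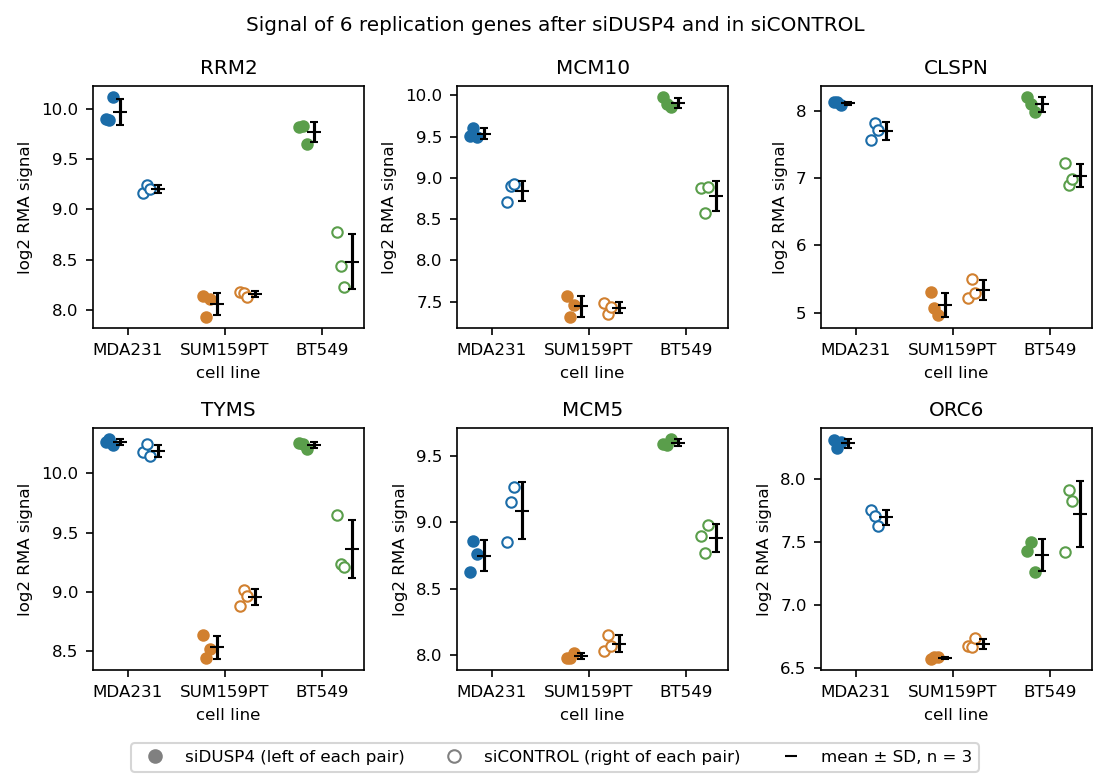
Log2 RMA signal of 6 replication genes on each siDUSP4 array (filled, left) and siCONTROL array (open, right) of the 3 lines, with mean and SD of 3 arrays. The BT549 siDUSP4 arrays lie above every BT549 siCONTROL array for RRM2, MCM10, CLSPN, TYMS and MCM5 but not for ORC6.

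The siDUSP4 effect differed between lines for 32 of the 47 genes (limma F test), against 15.5% of all genes. These were 8 of 11 helicase, 4 of 6 polymerase and primase and 4 of 4 nucleotide supply genes. Pair by pair, the effect in BT549 exceeded that in MDA231 for 23 genes and lay below it for 3 (median difference 0.51; 5.99% and 7.34% of all genes). It exceeded that in SUM159PT for 22 and lay below it for 0 (median 0.51; 2.37% and 3.26% of all genes). MDA231 against SUM159PT gave 7 higher and 1 lower (median 0.08; 3.15% and 3.54%).

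Of 39 further replication genes, 12 rose and 1 fell after siDUSP4 in BT549, where 4.97% and 9.22% of all genes did. In MDA231 5 rose and 2 fell, near the 7.86% and 9.77% of all genes, and in SUM159PT limma called 0. TICRR, which bridges CDK activity to CDC45 loading, rose by 0.80 and the nuclease and helicase gene DNA2 by 0.85 in BT549, whereas DUT, the enzyme that removes dUTP, fell by 0.75 in MDA231. Of 25 G2/M and mitosis genes, 12 rose and 1 fell in BT549, whereas 0 rose and 5 fell in MDA231. RB1 was at 8.0, 8.15 and 7.95 in BT549 siDUSP4 arrays, against 6.71, 7.01 and 6.78 in BT549 siCONTROL arrays (change 1.20 ± 0.09, limma adjusted p = 4.8e-11). In siCONTROL arrays RB1 was at 10.31 ± 0.09 in MDA231 and 9.40 ± 0.01 in SUM159PT. The part of RB1 or of the G2/M genes in the change of the replication genes was not tested. Of the genes with the E2F-type word, 15 of 23 rose in BT549, as did 12 of 18 without it; in MDA231 3 rose and 5 fell among those with the word, and 6 rose and 0 fell among those without it.

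After 4 h of selumetinib, when DUSP6 had already fallen, 2 replication genes passed the test in 1 line and none in the others. In MDA231 0 of 47 genes rose and 2 fell, with a median of -0.15, where 1.11% and 14.5% of all genes were called higher and lower and the median of all genes was -0.13. In SUM159PT 0 were called by limma (median -0.02; 2 at an unadjusted p under 0.05; 0.473% and 3.81% of all genes), and in BT549 also 0 (median 0.06; 3 at an unadjusted p under 0.05; 0.161% and 0.490% of all genes). The 4 h effect differed between lines for 0 genes (4 at an unadjusted p under 0.05; 1.84% of all genes). Pair by pair limma also called 0, with 10 genes at an unadjusted p under 0.05 for BT549 minus MDA231 (1.04% and 0.134% of all genes called higher and lower), 3 for BT549 minus SUM159PT (0.267% and 0.0557%) and 4 for MDA231 minus SUM159PT (0.484% and 1.1%).

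Both calls in MDA231 involve the arrays that stood apart. TK1 was at 10.17, 9.44 and 9.51 after 4 h, against 10.13, 10.31 and 10.17 in siCONTROL (change -0.50 ± 0.14, limma adjusted p = 0.013). RFC3, a subunit of the clamp loader RFC, was at 9.94, 9.35 and 9.43 after 4 h, against 10.28, 9.82 and 9.81 in siCONTROL (change -0.40 ± 0.12, limma adjusted p = 0.027). For both genes arrays B and C were low and array A overlapped the controls. Without arrays B and C the median of the 47 genes was 0.05 and 0 were called, but that leaves an arm of 1 array, assumed to vary like the other groups; the count was also 0 without B or C alone, 1 without siCONTROL array B, and 15 without the 4 h array A, which also raised the count of line differences to 8. ORC1, the large ORC subunit, had the smallest p among the members for a line difference at 4 h. It was at 7.23, 7.30 and 7.28 after 4 h, against 6.90, 6.89 and 6.94 in siCONTROL of BT549, and at 6.64, 7.06 and 6.96, against 7.23, 7.18 and 7.17 in SUM159PT. The groups were apart in each line, in opposite directions, but neither change nor the line difference passed the threshold (changes 0.36 and -0.30, limma F test adjusted p = 0.061).

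After 24 h of selumetinib the replication genes fell in MDA231 and SUM159PT. In BT549 few were called, and their median change was near that of all genes. In MDA231 35 of 47 genes fell and none rose (median -0.52), where 10.3% of all genes fell and 7.36% rose with a median of 0.02. In SUM159PT 17 fell and none rose (median -0.36), where 2.94% and 1.34% of all genes fell and rose with a median of -0.01. In each of these lines 41 of the 47 genes had all drug arrays below all siCONTROL arrays, against 17.1% of all genes in MDA231 and 20% in SUM159PT. In BT549 4 fell and none rose (median -0.11; median of all genes -0.09), where 12.4% and 2.66% of all genes fell and rose. CDC6, MCM4 and RFC4 were called lower in all 3 lines, the BT549 calls being lost without the 24 h array A, 15 genes in 2 lines, and 12 genes were called in none. The shares of all genes called in several lines or in none were not counted, so these numbers have no background to be read against. All comparisons within a line share its siCONTROL arrays with the siDUSP4 comparison.

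In MDA231 the 3 largest falls were those of MCM10, ORC6 and CLSPN. MCM10 was at 7.81, 7.64 and 7.89 after 24 h, against 8.70, 8.90 and 8.92 in siCONTROL, a change of -1.06 ± 0.13 (limma adjusted p = 1.3e-07) that left 48% of the control signal. ORC6 was at 6.97, 6.37 and 6.75 after 24 h, against 7.75, 7.70 and 7.63 in siCONTROL (change -1.0 ± 0.15, limma adjusted p = 5.1e-06). CLSPN was at 7.01, 6.80 and 6.58 after 24 h, against 7.56, 7.83 and 7.72 in siCONTROL (change -0.91 ± 0.16, limma adjusted p = 5e-05). All 3 drug arrays were below all 3 controls for each of these genes. ORC1 and CDC6 fell by 0.80 and 0.87, so that 4 of 5 licensing genes fell, the exception being GMNN, the CDT1 inhibitor geminin (change -0.42, limma adjusted p = 0.073).

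By role, 10 of 11 helicase genes fell in MDA231 (median -0.43) with GINS2 the exception, and 5 of 6 polymerase and primase genes (median -0.49) with POLD1, the catalytic subunit of polymerase delta, the exception. Of the nucleotide supply genes 1 of 4 fell (median -0.29). That gene was RRM2, at 8.58, 8.44 and 8.45 after 24 h, against 9.16, 9.24 and 9.20 in siCONTROL (change -0.72 ± 0.16), with no overlap. GINS2, POLD1, RRM1 and TYMS missed the threshold, although every drug array lay below every siCONTROL array. TK1 was at 10.18, 10.18 and 10.26 after 24 h, against 10.13, 10.31 and 10.17 in siCONTROL (change 0.01, 95% interval -0.27 to 0.28). RPA1 changed by -0.02 and RPA3 by 0.04. Of the clamp loader genes 4 of 5 fell (median -0.56), of the fork protection genes 3 of 3 (median -0.82), and of the chromatin assembly and maintenance methylation genes 4 of 4 (median -0.56).

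In SUM159PT the falls took in the whole MCM ring. All 6 ring genes MCM2 to MCM7 and CDC45 fell, with changes from -0.38 (MCM7) to -0.76 (CDC45). The 4 GINS genes missed the threshold, with changes from -0.29 (GINS4) to -0.46 (GINS1). For GINS1, GINS2 (-0.41) and GINS3 every drug array lay below every siCONTROL array, while GINS4 overlapped. The ring was not tested against GINS. Of the 11 helicase genes 7 were called lower (median -0.45), of the 6 polymerase and primase genes 1, POLE2 (median -0.25), and of the 4 nucleotide supply genes 0 (median -0.28). Yet for every polymerase, primase and nucleotide supply gene all drug arrays lay below all siCONTROL arrays. The counts therefore do not show that these sets were unchanged, and the sets were not tested against each other. WDHD1, which couples polymerase alpha to the helicase, was at 6.85, 6.75 and 6.69 after 24 h, against 7.61, 7.61 and 7.57 in siCONTROL (change -0.83 ± 0.13, limma adjusted p = 7e-05). CDC6 was at 6.96, 6.80 and 7.18 after 24 h, against 7.71, 7.95 and 7.67 in siCONTROL (change -0.79 ± 0.12, limma adjusted p = 7e-05). CDC45 was at 6.99, 7.01 and 6.97 after 24 h, against 7.67, 7.74 and 7.81 in siCONTROL (change -0.76 ± 0.11, limma adjusted p = 5.1e-05). The groups were apart for all 3 genes. The changes of the 47 genes in MDA231 and SUM159PT had a Pearson's r of 0.56 and a Spearman's rho of 0.51 across genes, between lines that share no arrays. The 24 h effects of these 2 lines differed for 0 genes (8 at an unadjusted p under 0.05; median difference, MDA231 minus SUM159PT, -0.10; 2.96% and 2.52% of all genes higher and lower).

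In BT549 the 4 calls were ORC6, CDC6, RFC4 and MCM4. ORC6 was at 7.09, 7.13 and 7.57 after 24 h, against 7.42, 7.91 and 7.83 in siCONTROL (change -0.46 ± 0.15, limma adjusted p = 0.034). CDC6 was at 9.05, 9.01 and 9.19 after 24 h, against 9.08, 9.73 and 9.66 in siCONTROL (change -0.41 ± 0.12, limma adjusted p = 0.024). RFC4 was at 10.37, 10.41 and 10.60 after 24 h, against 10.64, 10.94 and 10.81 in siCONTROL (change -0.33 ± 0.10, limma adjusted p = 0.024). ORC6 and CDC6 overlapped their controls and RFC4 did not. Without the 24 h array A, which was low over all genes, 0 of the 47 genes were called and their median was 0.05, with ORC6 at -0.37, CDC6 at -0.39, RFC4 at -0.29 and MCM4 at -0.20, against -0.31 for MCM4 with all arrays. The count was also 0 without siCONTROL array B or C, and 11 without the 24 h array C. Repeated quantile normalization gave 5 higher and 0 lower (median 0.11), so the direction of the BT549 median depended on the scaling.

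**Figure D4:**
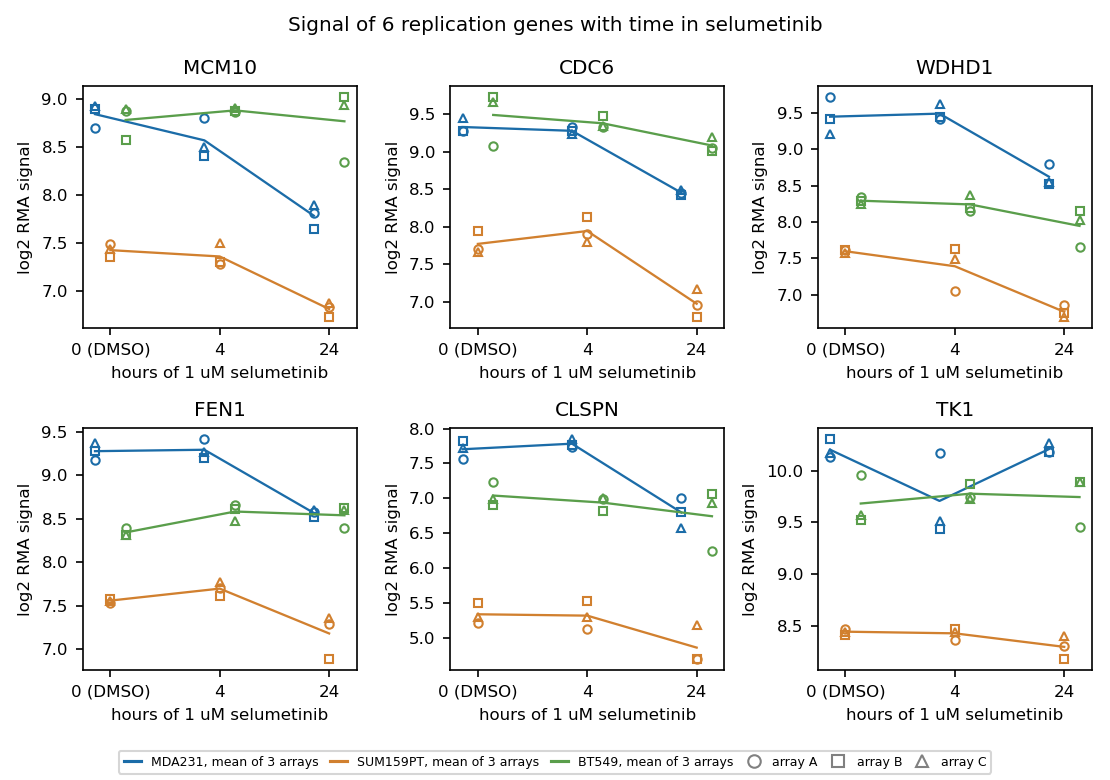
Log2 RMA signal of 6 replication genes at 0 h (siCONTROL with DMSO), 4 h and 24 h of 1 uM selumetinib, each array as a symbol and each line's mean as a coloured line; time points are evenly spaced on the axis. The means of MCM10, CDC6, WDHD1, FEN1 and CLSPN are lower at 24 h than at 0 h in MDA231 and SUM159PT (CLSPN in SUM159PT did not pass the test), and TK1 in MDA231 is low at 4 h on arrays B and C.

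The 24 h effect differed between lines for 12 of the 47 genes, against 9.91% of all genes; the count was 23 without the BT549 24 h array A, and 7 without the MDA231 24 h array B or the BT549 siCONTROL array B. It was higher in BT549 than in MDA231 for 12 genes and lower for 0 (median difference 0.38; 2.60% and 6.37% of all genes), and higher than in SUM159PT for 2 and lower for 0 (median 0.24; 0.451% and 1.27%). These pairwise counts include the BT549 24 h array A and were not recomputed without it. FEN1 and MCM10 had the smallest p. In BT549 FEN1 was at 8.40, 8.62 and 8.60 after 24 h, against 8.39, 8.32 and 8.32 in siCONTROL (change 0.20, not called). In MDA231 it was at 8.58, 8.51 and 8.61, against 9.18, 9.29 and 9.37 in siCONTROL (change -0.71 ± 0.10), and in SUM159PT at 7.29, 6.88 and 7.36, against 7.54, 7.58 and 7.56 in siCONTROL (change -0.38 ± 0.10). The groups were apart in each line, the drug arrays above the controls in BT549 and below them in the other 2 lines. MCM10 in BT549 was at 8.34, 9.02 and 8.94 after 24 h, against 8.87, 8.57 and 8.89 in siCONTROL, overlapping, with array A low (change -0.01). The effects in BT549 exceeded those in MDA231 by 0.91 ± 0.14 for FEN1 (limma adjusted p = 2.9e-05) and by 1.04 ± 0.18 for MCM10 (limma adjusted p = 0.00017).

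**Figure D5:**
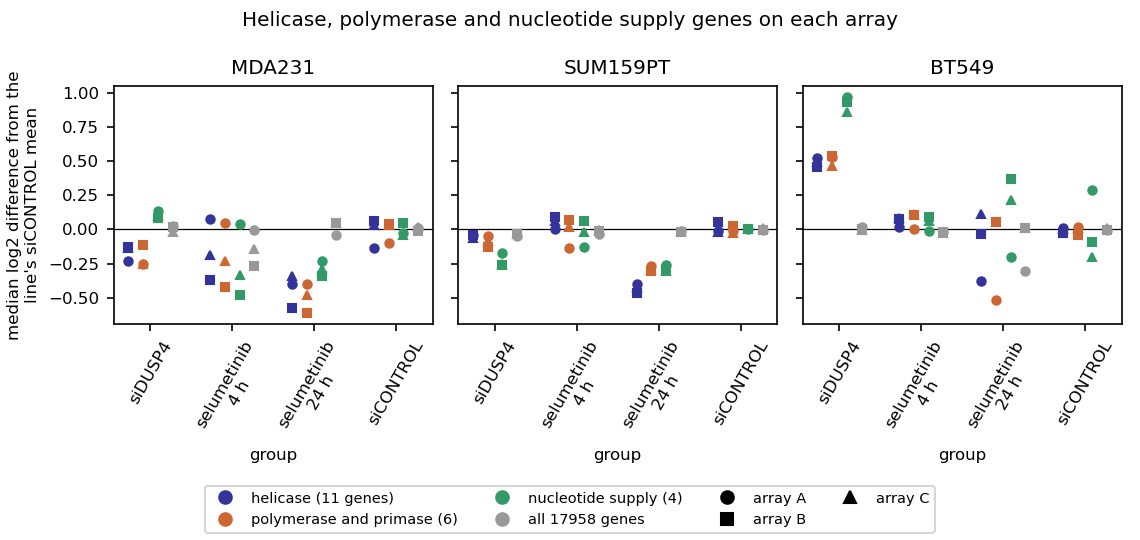
Median log2 difference from the siCONTROL mean of the line over the helicase (11), polymerase and primase (6) and nucleotide supply (4) genes and over all genes, on each array of each group. In BT549 after siDUSP4 the nucleotide supply genes lie above the other sets on all 3 arrays, and the BT549 24 h array A and the MDA231 4 h arrays B and C are low for all genes as well. In BT549 siCONTROL the nucleotide supply genes also spread more between arrays than the other sets.

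Most of the decrease was seen at 24 h and not at 4 h. At 24 h 21 genes were lower and 1, TK1, was higher than at 4 h in MDA231 (median -0.29), where 4.48% and 20.4% of all genes were lower and higher. The 4 h group here includes the low arrays B and C. TK1 was at 10.13, 10.31 and 10.17 at 0 h, at 10.17, 9.44 and 9.51 at 4 h and at 10.18, 10.18 and 10.26 at 24 h, so that its call rested on those arrays. Without both of them 23 genes were lower and 0 higher, from an arm of 1 array that was assumed to vary like the other groups, and repeated quantile normalization gave 36 lower and 1 higher. In SUM159PT 17 were lower and 0 higher (median -0.32; 0.685% and 2.32% of all genes), and in BT549 2, ORC6 and MCM4, were lower and 0 higher (median -0.13; 5.82% and 1.91%). The SUM159PT count was 11 without the 4 h array B or the 24 h array B, and the BT549 count was 0 without any one of the 4 h arrays or the 24 h array A and 5 without the 24 h array C. MCM10 in MDA231 stood at 8.70, 8.90 and 8.92 at 0 h, at 8.80, 8.40 and 8.50 at 4 h and at 7.81, 7.64 and 7.89 at 24 h. CDC6 in SUM159PT stood at 7.71, 7.95 and 7.67 at 0 h, at 7.91, 8.14 and 7.79 at 4 h and at 6.96, 6.80 and 7.18 at 24 h. For both genes the 24 h arrays lay below all arrays of the earlier times. The later drop of CDC6 in SUM159PT was 0.97 (log2; limma adjusted p = 3.9e-06) and that of ORC1 in MDA231 0.92 (limma adjusted p = 7e-07).

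Other cell-cycle genes are counted beside the shares of all genes that fell, which were 10.3% in MDA231, 2.94% in SUM159PT and 12.4% in BT549. Of the 39 further replication genes 12 fell in MDA231, 6 in SUM159PT and 7 in BT549, and none rose. ATAD5, which unloads the clamp, fell by 0.97 in MDA231, and POLD3, a polymerase delta subunit, by 0.60 in MDA231 and 0.44 in SUM159PT. Of 25 G2/M and mitosis genes 7, 1 and 3 fell in MDA231, SUM159PT and BT549, and none rose. The SUM159PT and BT549 counts are near the shares of all genes. For both lists the BT549 counts include the 24 h array A and were not recomputed without it. Among the replication genes 19 of 23 with the E2F-type word and 12 of 18 without it fell in MDA231. As the mean of the 3 lines, in which an exchange of the names SUM159PT and BT549 makes no difference, 39 of the 47 genes fell and none rose after 24 h (19.2% and 7.24% of all genes), 0 were called after 4 h by limma (8 at an unadjusted p under 0.05; 12.7% and 1.12% lower and higher), and 15 rose and 1 fell after siDUSP4 (7.43% and 11.3%).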

How the data were processed

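Total RNA of the 36 samples was hybridised to 1-colour Affymetrix arrays with whole-transcript sense labelling, per the labels. The values deposited by the authors are log2 signals; the submitters' processing notes name RMA and Expression Console 1.1, and no source used here gives the options, the summary level or the build of the array design. Arrays have no count depth, and their number limits the precision. The table lists 33297 probes, of which 19181 carry exactly 1 gene symbol; where a gene had several such probes (895 genes) the brightest on average was kept, leaving 17958 genes. RMA does not make the levels of different probes comparable.

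Groups follow the titles. limma 3.58.1 under R 4.3.3 fitted 12 group means (residual df 24, prior df 7.8), with Benjamini-Hochberg adjustment over all genes in each comparison; calls used an adjusted p under 0.05, and errors are SE unless SD is written. Line differences of an effect were tested by a moderated F test and by pairwise contrasts. The fit was tested on simulated data. With 3 against 3 arrays an exact permutation test has a smallest p of 0.1, so it was left out.

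The genes, their roles and the other lists were chosen with earlier results of these data known. Array values are given for up to 3 called genes of largest change in each comparison of a treatment with siCONTROL, for the 2 of smallest p for a line difference of each treatment, and for further genes picked after their values were seen as examples of a role. Other replication genes are up to 3 called ones of smallest p. Deviations of arrays of the same letter had a mean correlation of -0.02, 0.07 and -0.03 in MDA231, SUM159PT and BT549. It was over 0.1 in 4, 7 and 1 of 18 pairs, so some pairs deviated together, most often in SUM159PT. The fit has no replicate block, and counts with a block are given below.

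Alternatives were repeated quantile normalization, aligned array medians, dim genes left out, the mean of all probes of a gene, an intensity trend with a robust prior, the arrays of a line alone, a replicate block, leaving out each array, and leaving out the 2 arrays of lowest upper quartile. Leaving out the BT549 24 h array A alone and the MDA231 4 h arrays B and C together was chosen after seeing the data. Promoters came from RefSeq, GRCh38.p14.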

Additional observations from a re-analysis of the deposited data

Results flagged for a closer look

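Differences of an effect between lines, tested with limma's moderated F test, marked the following results. The siDUSP4 effect differed for 32 of the 47 replication genes and the 24 h selumetinib effect for 12. For siDUSP4 the smallest adjusted p-values were those of MCM5 (limma adjusted p = 4e-06; changes of -0.34 in MDA231, -0.09 in SUM159PT and 0.72 in BT549) and TYMS (limma adjusted p = 1.2e-05; 0.07, -0.43 and 0.87). For 24 h of selumetinib they were those of FEN1 (limma adjusted p = 7.8e-05; -0.71, -0.38 and 0.20) and MCM10 (limma adjusted p = 0.00048; -1.06, -0.61 and -0.01). Which of the arrays titled SUM159PT and BT549 belong to which line cannot be told apart from the labels, and an exchange of the 2 names would exchange their values here.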

How the results depend on the processing

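The counts of 29 genes after siDUSP4 in BT549, 35 after 24 h in MDA231 and 32 with a line difference of the siDUSP4 effect stayed within 1.5 times under every alternative tried. With the arrays of a line alone, the count was 10 in place of 18 for siDUSP4 in MDA231, 4 in place of 0 in SUM159PT, 0 in place of 2 for 4 h in MDA231, 2 in place of 0 for 4 h in SUM159PT, 26 in place of 17 for 24 h in SUM159PT, and 0 for 24 h and for 24 h against 4 h in BT549. With repeated quantile normalization it was 3 for siDUSP4 in SUM159PT, 1 for 4 h in SUM159PT and in BT549, 37 and 27 for 24 h against 4 h in MDA231 and SUM159PT and 0 in BT549, and 1 and 29 for the line differences at 4 h and 24 h. With aligned medians, with dim genes left out and with an intensity trend, 1 gene was called for siDUSP4 in SUM159PT; the first 2 also gave 1 for the line difference at 4 h, and leaving dim genes out gave 4 for 4 h in MDA231. Without the 2 arrays of lowest upper quartile (MDA231 4 h B and BT549 24 h A) the counts were 3 for siDUSP4 in SUM159PT, 0 for 4 h in MDA231, 1 for 4 h in SUM159PT, 1 (higher) for 24 h in BT549, 0 for 24 h against 4 h in BT549, and 1 and 24 for the line differences at 4 h and 24 h. Without BT549 24 h array A alone they were 0, 0 and 23 for 24 h, 24 h against 4 h and the line difference at 24 h; without MDA231 4 h arrays B and C they were 0 and 1 for 4 h and its line difference. Leaving out single arrays gave 9 to 17 for siDUSP4 in MDA231, 0 to 15 for 4 h in MDA231, 0 to 11 for 24 h in BT549, 11 to 15 and 0 to 5 for 24 h against 4 h in SUM159PT and BT549, and 0 to 8 and 7 to 23 for the line differences at 4 h and 24 h. With the replicate block the counts were 16 for siDUSP4 in MDA231, 31 in BT549 and 10 for the line difference at 24 h, and the block moved no count by over 1.5 times. The changes of 17 called genes, up to 3 of largest change in each comparison with siCONTROL, were also recomputed. They were picked from these same values, which favours a kept direction, and MCM5, TYMS, POLE and FEN1 are not among them. Of 243 recomputed values, 207 kept direction and call, 36 kept direction but were no longer called and 0 reversed. The cause of these moves was not tested. CLSPN in SUM159PT lay near the median probe level, where dim signal limits the change that can be seen.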
